A study of Rattus norvegicus with 4 samples.

Results

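The genes described here are 4 Notch receptors (Notch1, Notch2, Notch3 and Notch4), 3 of their ligands (Dll4, Jag1 and Jag2) and 2 genes that the pathway switches on (Hey1 and Hey2), measured in nuclei of rat hearts. They were picked by symbol, and all 9 were among the 32623 features of a deposited table of UMI counts, a UMI being 1 captured RNA molecule. The nuclei came from the infarct zone of Sprague Dawley rats, with 1 sample each named Sham, MI_1H, MI_6H and MI_24H. The infarct samples carry reperfusion in their treatment label, while the series text speaks of coronary ligation alone for those hours and lists reperfused hearts apart, so whether the hours run from ligation or from reperfusion is left unsettled. How many rats gave each sample is not given in the sources used here, and no genotype or drug differs between the groups. The table pools all nuclei, and the barcode suffixes 1 to 4 are not tied to the 4 samples by any source. They are called libraries 1 to 4 below, and nothing below compares infarct with sham.

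Notch receptors are bound by ligands of the Delta-like and Jagged families on a neighbouring cell. Binding exposes the receptor to the protease Adam10 and then to gamma-secretase, and the freed intracellular part joins the DNA-binding protein Rbpj and a Mastermind coactivator in the nucleus, where Hes and Hey repressor genes are switched on. In blood vessels Dll4 and Notch signalling are known for arterial identity and for restraining sprouting, and Notch3 is known as the receptor of the smooth muscle and pericyte coat, where Jag1 on the endothelium is among its ligands.

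The 9 genes were read in 41728 nuclei that passed the filters, between 6181 and 14287 in a library, with a median of 602 to 2215 UMIs per nucleus. Over all of these nuclei Hey1 had 110 UMIs, Hey2 623, Jag2 1841, Dll4 2306 and Notch3 3448, and the other 4 genes had 5317 to 15673. Nuclei were grouped without the Notch genes and named from cell type markers, so each class name below means marker-like only. With unnamed clusters of the 2 families included, endothelial-like nuclei numbered 2183, 165, 2798 and 2260 in libraries 1 to 4 and mural-like nuclei (pericytes and smooth muscle) 664, 138, 445 and 344. Cardiomyocyte nuclei numbered 2665, 469, 1133 and 728. Their 6 cardiomyocyte markers summed to 28115, 14542, 9196 and 12540 CPM, against 2136, 1740, 1036 and 1018 CPM in endothelial-like nuclei. CPM is explained below. Library 2 stood apart, since 92.2% of its nuclei fell in clusters that no marker list named, and its named classes were thin: 2 arterial, 10 capillary and 7 smooth muscle nuclei. Capillary nuclei lay in clusters 1, 11, 13 and 14, and the 10 leading genes of clusters 1 and 11 held none of the capillary markers. Those of both clusters held the mast marker Kit, and those of cluster 1 also held the arterial marker Cxcl12. Both clusters still passed the naming rule. For this reason the levels of the capillary class are given but not compared between libraries. Between 22 and 78 cell barcodes were shared by any 2 libraries. The markers of other cell types, taken as a share of their level in the whole library, give an estimate of free RNA, which was between 10.3% and 81.1% over the named classes of at least 20 nuclei. Each level is given in CPM, the UMIs of the gene for every 1000000 UMIs of the class, and the brackets beside levels and ratios hold 95% intervals that cover counting error only. With 1 sample a group and no map to it there is no test here. A gene was called higher or lower in a class when log2(CPM + 10) differed at least 2-fold the same way in every library with at least 20 nuclei on both sides, and only genes with at least 30 UMIs over both sides in each of those libraries were counted.

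Notch3, the receptor of the vessel coat, separated mural nuclei from all others. It stood at 769, 606, 599 and 514 CPM in mural nuclei of libraries 1 to 4, against 7.63, 54.6, 17.0 and 13.9 CPM in all other named nuclei. The groups did not overlap, and the other nuclei of library 2 were the highest of their side. The ratios and their intervals were 101 (82.3 to 125), 11.1 (8.56 to 14.4), 35.3 (31.5 to 39.5) and 37.0 (31.7 to 43.3). Of the 7 members with enough UMIs, Notch3 alone was called higher in mural nuclei, where 1.18% of 9615 genes were called higher, and none was called lower, where 1.02% were. Leaving out 1 library can only keep or add calls under this rule, so it was no check on the call of Notch3. A Notch3 UMI was seen in 48.5, 42.4, 63.4 and 56.0% of pericyte nuclei, against 1.24, 4.24, 1.22 and 1.99% of endothelial nuclei, which should lack it, at median depths of 778, 1003, 1648 and 1462.5 UMIs in pericyte and 1043, 1821, 1933 and 2509.5 UMIs in endothelial nuclei. With every nucleus thinned to 1000 UMIs the shares were 49.4, 39.7, 44.9 and 43.5% in pericytes and 1.39, 1.49, 0.346 and 0.542% in endothelial nuclei. Thinning left out 384, 62, 41 and 57 shallower pericyte nuclei and 1029, 31, 194 and 229 shallower endothelial nuclei. The gap between the coat and the lining of the vessels was thus present in each library at equal depth.

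Within the mural coat Notch3 was high in both classes. Smooth muscle nuclei of libraries 1 and 4 had 1178 and 626 CPM, against 848 and 573 CPM in pericyte nuclei, with ratios of 1.39 (1.07 to 1.78) and 1.09 (0.838 to 1.41). The interval of library 4 includes 1. Smooth muscle rested on 53 and 50 nuclei in those libraries, and the 16 nuclei of library 3 had 494 CPM. Of the 8 mural clusters, the lowest Notch3 level was 347 (304 to 395) CPM in a cluster of 157 nuclei led by endothelial genes such as Cdh5 and Btnl9, which was left unnamed. Among the 6 pericyte clusters it ran between 389 (307 to 485) CPM in a cluster with fibroblast genes among its leading genes and 892 (806 to 985) CPM in the cluster that held 510 of its 511 nuclei from library 1.

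**Figure D1:**
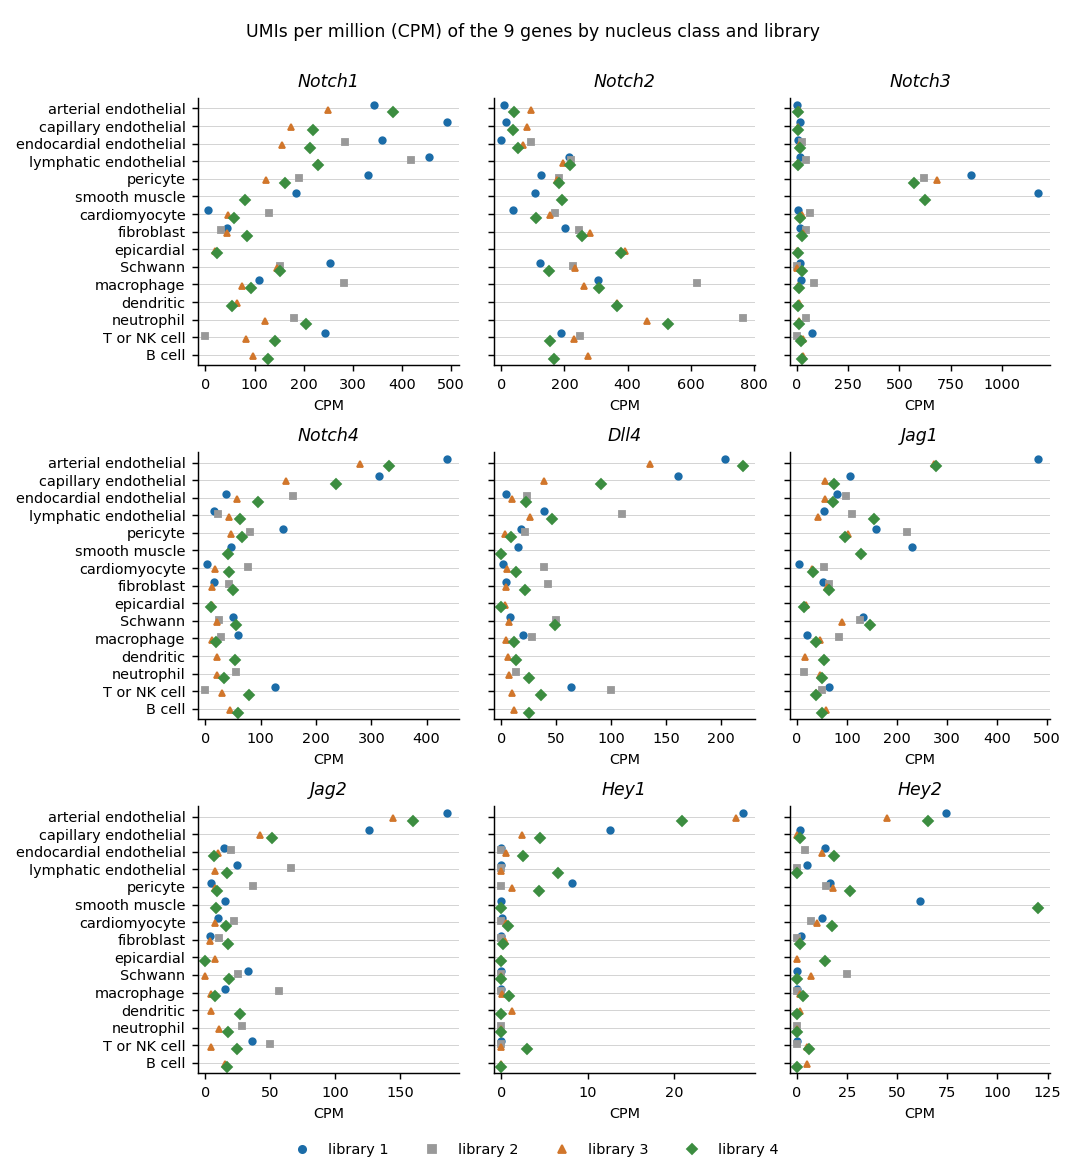
Levels of the 9 genes in CPM (linear axis from 0, 1 panel per gene) for each named nucleus class, with 1 point per library of at least 20 nuclei. Notch3 points lie far right in pericyte and smooth muscle rows, those of Notch4, Dll4, Jag1, Jag2 and Hey1 in the arterial row, and those of Notch2 in the neutrophil row.

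Notch1, the receptor that transduces Dll4 signals in endothelium, and Notch4, a receptor known mostly from endothelium, were the members called higher in endothelial nuclei. Notch1 stood at 381, 323, 174 and 228 CPM in endothelial nuclei of libraries 1 to 4, against 40.3, 137, 60.5 and 83.0 CPM in all other named nuclei. Notch4 stood at 218, 164, 117 and 193 CPM in endothelial nuclei, against 18.1, 72.4, 16.1 and 46.8 CPM in the others. For both genes the lowest endothelial value, that of library 3, was above the highest value of the other nuclei, that of library 2. The ratios of library 2 were the smallest, 2.36 (1.90 to 2.92) for Notch1 and 2.27 (1.66 to 3.06) for Notch4, and those of library 1 the largest, 9.45 (8.50 to 10.5) and 12.1 (10.4 to 14.1). These were 2 of 7 members with enough UMIs, beside 2.36% of 9615 genes called higher. Without library 2 the count was 4, with Dll4 and Jag2 added. Dll4 stood at 96.4, 38.3, 33.9 and 67.9 CPM in endothelial nuclei of libraries 1 to 4, against 5.44, 37.9, 5.40 and 18.8 CPM in the others. Jag2 stood at 91.7, 41.0, 31.1 and 57.5 CPM, against 9.25, 24.0, 5.46 and 15.9 CPM. In library 2 the ratios were 1.01 (0.532 to 1.79) for Dll4 and 1.71 (0.900 to 3.06) for Jag2. Their levels in endothelial subtypes are described with the ligands. Notch4 lost its call under median-of-ratios scaling and again when only nuclei of named subtypes were counted, and Notch1 kept it in both. Notch3 was called lower in endothelial nuclei, at 9.36, 21.9, 6.95 and 7.68 CPM against 51.0, 101, 38.4 and 52.9 CPM in the other nuclei, where 2.44% of genes were called lower. That call was lost under 4 other ways of filtering or clustering, and the median log2 difference of Notch3 was then between −0.69 and −1.46, against −1.73. The other nuclei include the mural ones, which held 546, 107, 611 and 444 of their 629, 239, 1187 and 648 Notch3 UMIs in libraries 1 to 4. The lower call therefore rests largely on the mural level, and endothelial nuclei against the nonmural rest were not tested.

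UMIs of both receptors were also counted outside the endothelium. Pericyte nuclei had 330.4, 190.3, 123 and 162 CPM of Notch1 and 139.6, 80.5, 47.0 and 65.8 CPM of Notch4 in libraries 1 to 4. Their 7 endothelial markers summed to 299.6, 1200.3, 333 and 645 CPM, against 6108, 3778, 3835 and 4938 CPM in endothelial nuclei, and no marker of the list was at 0 in pericytes. In library 1 the pericyte level of Notch1 was close to the endothelial one, while the marker sum was far below it. The free RNA estimate was 22.3, 65.1, 72.9 and 59.0% in pericytes of libraries 1 to 4, and with it subtracted they had 389.5, 179, 213 and 183 CPM of Notch1 and 161, 31.6, 74.1 and 15.02 CPM of Notch4. T or NK nuclei had 244, 0, 81.7 and 141 CPM of Notch1 and 126, 0, 30.2 and 78.0 CPM of Notch4 in libraries 1 to 4, on 27, 0, 84 and 47 and 14, 0, 31 and 26 UMIs. Their free RNA estimate was 41.0, 68.5, 81.1 and 69.5%, and with it subtracted they had 314, 0, 69.6 and 129 CPM of Notch1 and 161, 0, 11.6 and 23.5 CPM of Notch4. Levels after subtraction are rescaled to the UMIs that remain, so some exceed the level before it. The counts of 0 in library 2 allow up to 149.6 CPM. In the order of class medians Notch1 went from arterial through lymphatic, endocardial and capillary endothelium to neutrophils and pericytes, and each neighbour in this order overlapped the next. Notch4 led in arterial and capillary nuclei, whose ranges overlapped, at medians of 331 and 235 CPM over 3 libraries, and the endocardial median was 76.1 CPM over 4 libraries.

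Notch2, a receptor of broad expression, had the opposite distribution. In blood vessel endothelium it was low, at 16.5, 82.7 and 36.3 CPM in capillary and 9.29, 93.2 and 41.8 CPM in arterial nuclei of libraries 1, 3 and 4. It was highest in neutrophils, at 764, 462 and 527 CPM in libraries 2 to 4, where their free RNA estimate was 63.7, 78.8 and 65.7%. That range did not overlap the epicardial one, next by median, but it did overlap that of macrophages. Within each of these libraries neutrophils stood above macrophages. Macrophages followed epicardial and dendritic nuclei in the order of medians, at 305, 619.9, 261 and 311 CPM in libraries 1 to 4. Fibroblast nuclei had 202, 246, 281 and 256 CPM, and epicardial nuclei had 392 and 379 CPM in libraries 3 and 4. Neutrophils, macrophages and fibroblasts thus stood above the arterial and capillary nuclei of the same library wherever both held at least 20 nuclei. Over all endothelial nuclei the level was 34.0, 109, 98.4 and 56.1 CPM, against 88.4, 205, 251 and 199 CPM in all other named nuclei. The difference in log2(CPM + 10) was −1.16, −0.85, −1.27 and −1.66 in libraries 1 to 4, so library 2 missed the 2-fold limit, and without that library Notch2 was called lower.

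Lymphatic nuclei differed from the other endothelial nuclei in Notch2 and in Notch4. Notch2 stood at 215, 221, 195 and 217 CPM in lymphatic nuclei of libraries 1 to 4, against 21.7, 93.7, 91.9 and 49.2 CPM in the other endothelial nuclei. Notch4 stood at 14.7, 22.1, 42.3 and 62.3 CPM in lymphatic nuclei, against 232, 184, 123 and 199 CPM in the other endothelial nuclei. The ranges did not overlap for either gene, and the 2 receptors pointed in opposite directions. Of 4 members with enough UMIs Notch2 was the member called higher, beside 1.41% of 3184 genes, and Notch4 the member called lower, beside 2.67%. The Notch2 ratios were 9.94 (6.62 to 14.8), 2.35 (1.03 to 4.95), 2.12 (1.66 to 2.67) and 4.40 (3.33 to 5.74), and the call was lost with free RNA subtracted and with no doublets removed. The Notch4 value of library 2 was 1 UMI, with a ratio of 0.120 (0.00298 to 0.693), and without library 2 the count of lower calls was 2, with Jag2 added to Notch4. With all libraries summed, Notch4 was 41.8 (30.01 to 56.7) CPM in the lymphatic cluster and also low in endocardial cluster 5, at 54.8 (41.6 to 70.9) CPM, with overlapping intervals. Notch1 was not called, with ratios of 1.21 (0.969 to 1.496), 1.36 (0.783 to 2.23), 1.35 (1.09 to 1.66) and 1.01 (0.780 to 1.28). These lymphatic nuclei, 130, 26, 178 and 80 in libraries 1 to 4, sat in 1 cluster led by Ccl21, Mmrn1, Prox1 and Reln.

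Dll4 and Jag1 were called higher in arterial nuclei than in the other endothelial nuclei. Arterial nuclei, 56, 151 and 230 in libraries 1, 3 and 4, formed 1 cluster led by genes such as Dkk2, Gja5 and Bmx. Jag1, a ligand that endothelium presents to mural cells, stood at 483, 274 and 278 CPM in arterial nuclei, against 90.1, 61.9 and 92.8 CPM in the other endothelial nuclei of the same 3 libraries. Dll4, the Delta-like ligand of arterial and sprouting endothelium, stood at 204, 135 and 219.9 CPM in arterial nuclei, against 92.7, 28.6 and 51.6 CPM in the others. Every arterial value of these ligands was above every value of the other endothelial nuclei. The Jag1 ratios were 5.36 (3.91 to 7.23), 4.42 (3.48 to 5.56) and 3 (2.55 to 3.52) and the Dll4 ratios 2.21 (1.36 to 3.40), 4.73 (3.33 to 6.58) and 4.26 (3.51 to 5.16). These were 2 of the 7 members with enough UMIs, beside 1.05% of 8776 genes called higher, and no member was called lower, beside 1.55%. When the other side held only nuclei of named subtypes the count was 1, Jag1, and without library 1 it was 4, with Jag2 and Hey2 added.

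Jag2, the second Jagged ligand, behaved much like Dll4. It stood at 186, 144 and 160.1 CPM in arterial nuclei, against 88.5, 25.2 and 46.5 CPM in the other endothelial nuclei, with ratios of 2.10 (1.26 to 3.31), 5.72 (4.06 to 7.94) and 3.44 (2.75 to 4.27). Its difference in log2(CPM + 10) was 0.99, 2.13 and 1.59, so library 1 fell just short of 2-fold. In library 1, 1044 of the 2127 other endothelial nuclei were capillary, in which Jag2 was at 126 CPM and Dll4 at 161 CPM. A Dll4 UMI was seen in 32.1, 23.8 and 37.4% of arterial nuclei, against 0.505, 1.59 and 7.56% of fibroblast nuclei in libraries 1, 3 and 4, at median depths of 1658.5, 1889 and 2282 UMIs in arterial and 1016, 2937 and 3121 UMIs in fibroblast nuclei. Thinned to 1000 UMIs, which left out 12, 9 and 12 arterial and 1156, 61 and 41 fibroblast nuclei, the shares were 15.9, 14.1 and 18.3% in arterial and 0.656, 0.364 and 1.79% in fibroblast nuclei. The receptors differed less. Notch4 had arterial ratios of 2.07 (1.51 to 2.79), 2.56 (2.04 to 3.19) and 1.85 (1.61 to 2.13) and Notch1 of 0.899 (0.630 to 1.25), 1.47 (1.16 to 1.83) and 1.80 (1.58 to 2.05), and neither was called, though without library 4 Notch4 joined Dll4 and Jag1.

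Jag1 was also present in the vessel coat. Pericyte nuclei had 158, 219.6, 102 and 96.6 CPM in libraries 1 to 4, and smooth muscle nuclei had 229 and 128 CPM in libraries 1 and 4. Over all mural nuclei the level was 166, 209.7, 97.1 and 121 CPM, against 36.4, 60.0, 51.6 and 72.1 CPM in all other named nuclei, and libraries 3 and 4 missed the 2-fold limit. Over the same mural nuclei Dll4 was 39.5, 22.7, 10.8 and 35.9 CPM, against 23.5, 39.0, 10.5 and 37.4 CPM in all other named nuclei, with ratios of 1.68 (1.10 to 2.47), 0.582 (0.155 to 1.54), 1.03 (0.509 to 1.86) and 0.960 (0.647 to 1.38). Jag2 was 19.7, 45.3, 12.8 and 17.4 CPM in mural nuclei, against 26.6, 24.9, 9.98 and 32.3 CPM in the others, with ratios of 0.742 (0.402 to 1.26), 1.82 (0.753 to 3.80), 1.28 (0.674 to 2.21) and 0.538 (0.299 to 0.895). Neither kept 1 direction in every library. Of the 28 and 31 mural Dll4 UMIs of libraries 1 and 4, pericytes held 9 and 4 and smooth muscle 1 and 0. Of the 14 and 15 mural Jag2 UMIs there, pericytes held 2 and 4 and smooth muscle 1 and 1. The rest lay in the unnamed mural cluster led by endothelial genes, so these mural levels are not those of the named coat classes. Pericyte nuclei had 18.5 and 8.78 CPM of Dll4 in libraries 1 and 4. In the order of class medians Jag1 and Jag2 each had arterial nuclei first with no overlap with the next class, which was smooth muscle for Jag1 and capillary endothelium for Jag2. Pericyte and Schwann nuclei came after smooth muscle for Jag1, at medians of 129.8 and 128.4 CPM over 4 libraries, and their ranges overlapped. Jag1 outside the endothelium was thus not particular to the coat. The arterial and capillary ranges of Dll4 overlapped.

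**Figure D2:**
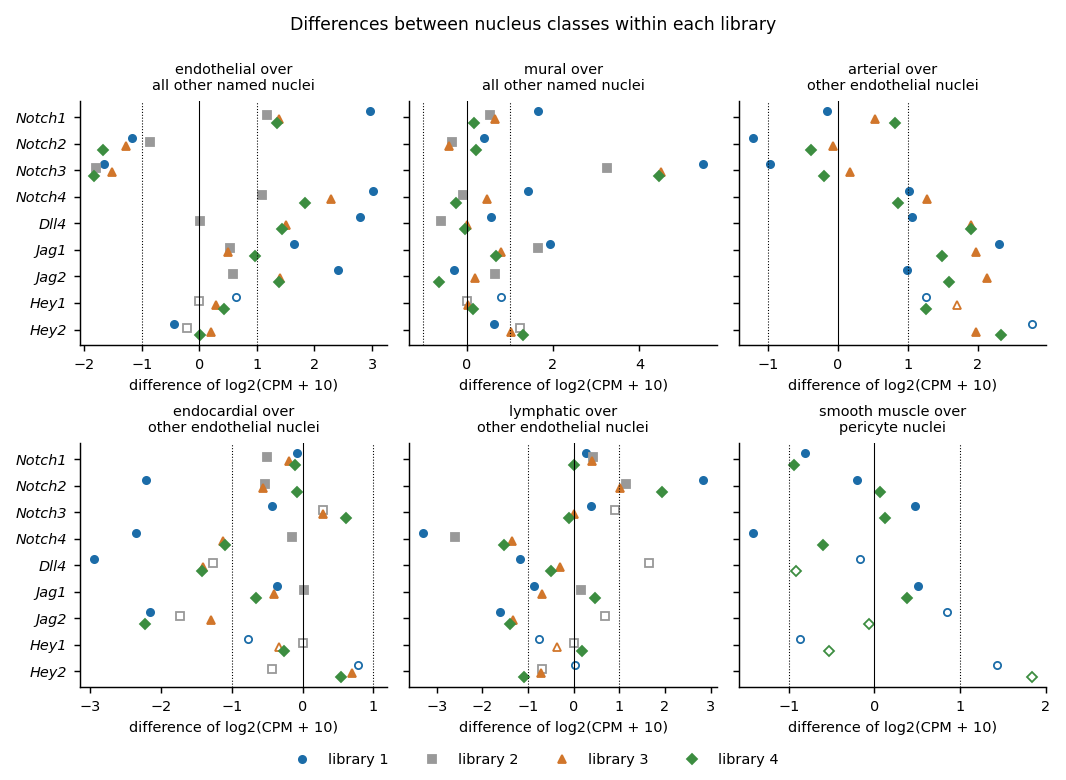
Difference in log2(CPM + 10) of each gene between the first-named class and the nuclei it is set against, 1 point per library, with open points where both sides held under 30 UMIs and dotted lines at 2-fold. In the arterial panel all points of Dll4, Jag1, Jag2, Hey1 and Hey2 lie right of 0, with Jag2 of library 1 just left of the dotted line, and in the mural panel Notch3 stands far right.

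Hey2 and Hey1 encode repressors of the Hey family, read out as the arterial and cardiac targets of the pathway. Hey2 stood at 74.3, 45.1 and 65.4 CPM in arterial nuclei of libraries 1, 3 and 4, against 2.26, 4.05 and 4.92 CPM in the other endothelial nuclei. The ratios were 32.9 (10.4 to 107), 11.1 (5.49 to 21.8) and 13.3 (8.34 to 21.4), but library 1 rested on 8 arterial and 7 other UMIs, which kept Hey2 out of the count of calls. Hey1 stood at 27.9, 27.1 and 20.9 CPM in arterial nuclei, against 5.81, 1.40 and 2.83 CPM in the others, on 3, 9 and 15 arterial UMIs, with ratios of 4.80 (0.905 to 16.4), 19.3 (6.80 to 54.9) and 7.37 (3.48 to 15.3). Each arterial value of either gene was above each value of the other endothelial nuclei. A Hey2 UMI was seen in 10.7, 7.95 and 11.7% of arterial nuclei, against 0.210, 0.520 and 0.670% of fibroblast nuclei at the depths given for Dll4. Thinned to 1000 UMIs, where 1 of the 44 arterial nuclei left in library 1 had a UMI, these shares were 2.27, 4.23 and 7.80% in arterial and 0.328, 0.0663 and 0.199% in fibroblast nuclei.

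Over all endothelial nuclei Hey1 had 21, 0, 18 and 34 UMIs in libraries 1 to 4. Outside the endothelium Hey2 had a level of its own. It was seen in smooth muscle, at 61.2 and 120.4 CPM in libraries 1 and 4, against 16.4 and 26.3 CPM in pericytes, on 4 and 15 smooth muscle UMIs, with ratios of 3.73 (0.821 to 13.9) and 4.57 (2.00 to 10.7). No Hey1 UMI was seen in the smooth muscle nuclei of any library. A count of 0 there allows up to 24.1 CPM in library 4, which is more than the arterial Hey1 level of that library, so a difference was not detectable at this depth. Over all mural nuclei Hey2 was at 18.3, 28.3, 18.6 and 38.2 CPM, against 8.37, 6.23, 3.95 and 9.46 CPM in all other named nuclei, with library 2 resting on 5 UMIs and short of the count minimum. Cardiomyocyte nuclei had 12.5, 6.88, 9.75 and 17.3 CPM of Hey2 in libraries 1 to 4, on 103, 13, 67 and 83 UMIs, and 0.121, 0, 0.582 and 0.835 CPM of Hey1, on 1, 0, 4 and 4 UMIs. Hey2 in macrophages, which serve here as a class that should lack it, was 0, 0, 1.28 and 2.82 CPM, where the counts of 0 in libraries 1 and 2 allow up to 14.8 and 84.5 CPM. The cardiomyocyte level of Hey2 was above the macrophage level in libraries 3 and 4, and a difference was not detectable at the macrophage depth of libraries 1 and 2. In fibroblast nuclei Hey2 was highest in library 1, at 2.07 CPM, against 12.5 CPM in cardiomyocytes of that library.

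Promoter sequence is shown for 3 target genes of the pathway, since the binding motif of Rbpj can be read in them directly. The sequences are the 250 bases before the RefSeq start of each gene in the rat assembly GRCr8, which was not the assembly of the counts. Capitals mark TGGGAA, the core of the Rbpj motif, on either strand (TTCCCA is its reverse complement), and CGTGGGAA, a longer form that contains the core.
Hey2 (chr1:28640850-28641099, plus strand): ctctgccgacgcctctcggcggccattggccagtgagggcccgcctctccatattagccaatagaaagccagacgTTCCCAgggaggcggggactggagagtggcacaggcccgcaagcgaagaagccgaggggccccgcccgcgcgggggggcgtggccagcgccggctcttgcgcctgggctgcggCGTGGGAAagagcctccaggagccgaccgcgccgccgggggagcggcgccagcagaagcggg
Hes1 (chr11:84213046-84213295, minus strand): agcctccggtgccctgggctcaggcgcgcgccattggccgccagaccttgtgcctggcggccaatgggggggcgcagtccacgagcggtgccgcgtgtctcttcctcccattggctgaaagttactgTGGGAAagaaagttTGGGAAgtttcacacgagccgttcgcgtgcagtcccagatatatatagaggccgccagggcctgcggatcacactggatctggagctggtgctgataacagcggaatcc
Heyl (chr5:140793021-140793270, plus strand): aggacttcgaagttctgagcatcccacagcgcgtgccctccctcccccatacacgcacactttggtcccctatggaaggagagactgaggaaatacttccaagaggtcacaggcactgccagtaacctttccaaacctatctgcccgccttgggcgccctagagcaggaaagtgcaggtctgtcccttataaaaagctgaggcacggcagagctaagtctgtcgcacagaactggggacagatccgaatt
The core was present in 22.1% of 33469 rat promoters of this length and the longer form in 0.624%. Counting back from the start, Hey2 held the longer form once, at −62 to −55, and another core on the opposite strand at −175 to −170. Hes1 held 2 cores in the same direction, at −123 to −118 and −109 to −104, and Heyl held none. Among the 7 members with an entry, Hey2 and Notch4 had a core match, and Notch1, Notch2, Notch3, Jag1 and Jag2 had none in this window. Dll4 and Hey1 were the members with no entry. A match is a string of letters and not a bound site, and no match speaks only of these letters in this window.

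The endothelium was not uniform in its ligands. Across 15 endothelial clusters, with all libraries summed, Dll4 was highest in the arterial cluster at 194 (169 to 221) CPM, with its 95% interval in brackets. The capillary cluster that made up nearly all capillary nuclei of library 1 followed at 163 (142 to 187) CPM, and the intervals of the 2 clusters overlap. The capillary clusters of libraries 3 and 4 had less, 94.9 (81.5 to 109.9) CPM in cluster 11 and 27.6 (19.8 to 37.6) CPM in cluster 14, of which 716 of 810 nuclei came from library 3. A cluster of 277 nuclei led by Apln, a peptide gene known from sprouting endothelium, had 57.1 (37.6 to 83.0) CPM of Dll4 and 0 UMIs of Hey2, and was left unnamed. Both large clusters whose highest scoring markers were venous, left unnamed because only 2 of those markers passed, had 34.3 (24.4 to 46.9) and 23.5 (18.7 to 29.2) CPM of Dll4. Unnamed clusters 8 and 10, led in part by macrophage and neutrophil genes such as Cd163 and Cxcr2, had 134 (115 to 156) and 137 (114 to 162) CPM of Notch2. The Hey2 levels of the venous-scoring clusters were 0 and 2.01 (0.808 to 4.14) CPM.

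Nuclei named endocardial, for the lining of the heart chambers, were low in Dll4 and Jag2. Their 6 endocardial markers summed to 8439, 1311, 1911 and 2305 CPM in libraries 1 to 4, against 608, 925, 514 and 417 CPM in all endothelial nuclei. Venous markers were present too, 5 that summed to 3291, 2095, 2944 and 2573 CPM in these nuclei, above the endocardial sum in libraries 2 to 4, against 1357, 1882, 1694 and 1696 CPM in all endothelial nuclei. 1 of the 5, Selp, was at 0 in library 1, and the part of venous nuclei in the differences was not tested. Dll4 stood at 4.68, 23.8, 9.59 and 22.4 CPM in endocardial nuclei of libraries 1 to 4, against 103, 70.7, 41.8 and 76.7 CPM in the other endothelial nuclei, and Jag2 stood at 14.03, 19.8, 9.59 and 6.64 CPM in endocardial nuclei, against 97.3, 88.4, 38.1 and 67.4 CPM in the others. Both were lower in endocardial nuclei in each library, with ratios of 0.0454 (0.00115 to 0.255), 0.336 (0.0961 to 1.10), 0.229 (0.129 to 0.381) and 0.292 (0.190 to 0.430) for Dll4 and 0.144 (0.0296 to 0.425), 0.224 (0.0601 to 0.719), 0.252 (0.141 to 0.419) and 0.0985 (0.0422 to 0.196) for Jag2. In library 2 both sides of both genes held under 30 UMIs together, so neither was among the 4 members counted, and 0 of those 4 were called, beside 2.01% of 3184 genes called higher and 1.82% called lower. Without library 2 the count of lower calls was 3, Notch4, Dll4 and Jag2. Notch4 was 37.4, 158, 57.5 and 94.6 CPM in endocardial nuclei, against 231, 177, 137 and 213 CPM in the others, with the smallest gap in library 2. Notch1 had ratios of 0.941 (0.737 to 1.19), 0.701 (0.478 to 1.04), 0.865 (0.751 to 0.994) and 0.922 (0.804 to 1.05). The 2 endocardial clusters differed in Hey2, with 32.1 (22.3 to 44.9) CPM in cluster 5 and 5.70 (3.03 to 9.74) CPM in cluster 7, whose leading genes included Ptgs2 and Bmp6. The first held 129, 1, 204 and 87 nuclei of libraries 1 to 4 and the second 3, 93, 295 and 168.

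**Figure D3:**
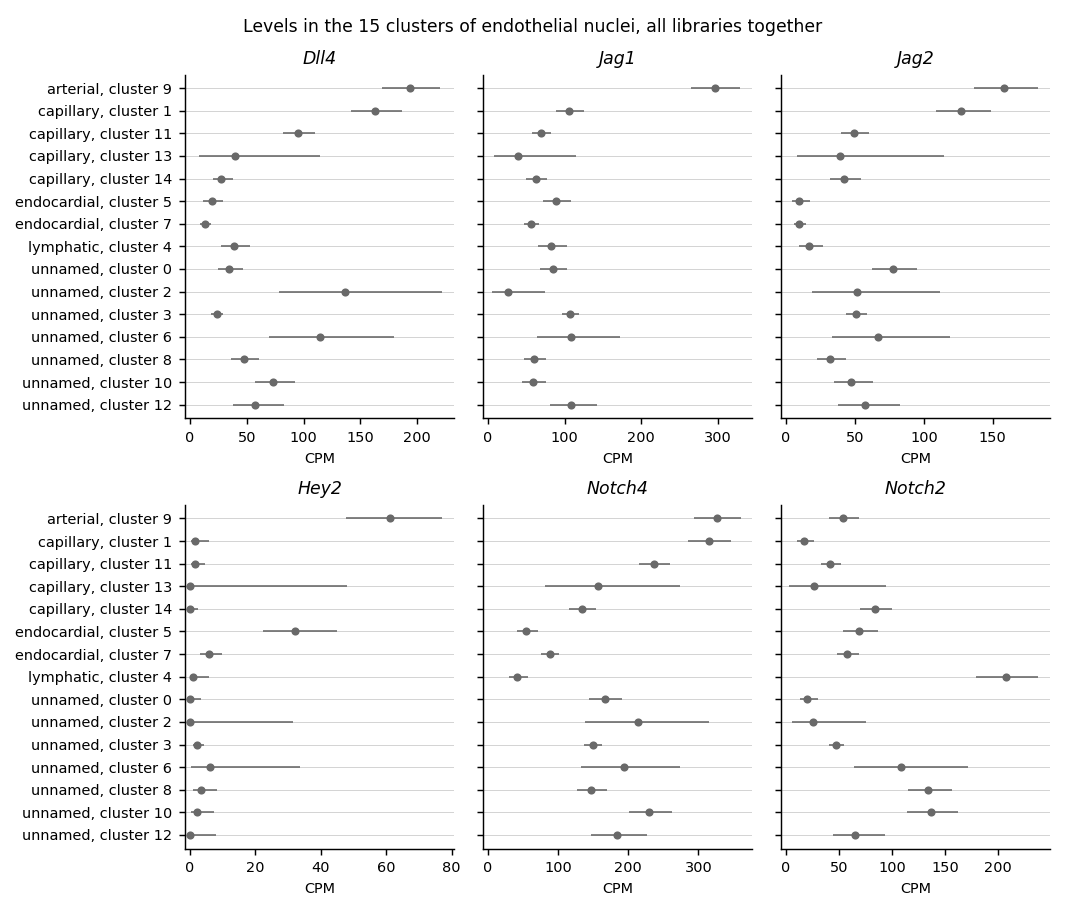
Levels of 6 members in CPM in the 15 endothelial clusters, all libraries summed, with 95% exact Poisson intervals for counting error. Dll4, Jag1, Jag2 and Hey2 peak in arterial cluster 9, Hey2 shows a second level in endocardial cluster 5, and Notch2 peaks in lymphatic cluster 4.

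Levels were also compared between libraries within a class. Capillary nuclei are given by cluster, because no capillary marker was among the leading genes of clusters 1 and 11, as described above. Cluster 1 lay almost wholly in library 1 and cluster 14 mostly in library 3, so cluster and library cannot be told apart. In cluster 11 Dll4 was 76.2 CPM in library 3 and 100.3 CPM in library 4, and in cluster 14 it was 28.3 CPM in library 3 and 23.4 CPM in library 4. In both libraries the level in cluster 11 was above that in cluster 14. A small capillary cluster, 13, of which 40 of 46 nuclei were from library 4, was led by interferon-response genes such as Usp18 and Ifi44. In arterial nuclei, which came from 1 cluster, 1 of 7 members with at least 30 UMIs in all spanned at least 2-fold between the highest and the lowest library, Notch2 on 62 UMIs in all, beside 39.2% of 6969 genes. Over all endothelial nuclei 4 of 9 did, beside 30.9% of 13023 genes, and 7 did with a pseudocount of 1 CPM. The endothelial count was 0 without library 1 and 2 without library 3. The mix of endothelial subtypes also differed between libraries. Endocardial nuclei were 132 of 2183, 94 of 165, 499 of 2798 and 255 of 2260 endothelial nuclei in libraries 1 to 4. The part of this mix in the endothelial spans was not tested. Over all mural nuclei 5 of 8 did, beside 43.7% of 9917 genes, and 1 did with at least 1000 UMIs per nucleus. The mural count was 3 without library 1 or without library 2 and 2 without library 3. Notch3 was not among the mural 5, at a span of 0.57 on the log2 scale.

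Cardiomyocyte nuclei showed wide spans of 4 receptors and 2 ligands. Notch1 was 5.82, 130.2, 45.7 and 59.1 CPM in libraries 1 to 4, Notch4 3.27, 76.8, 17.6 and 42.0 CPM and Dll4 1.58, 38.6, 5.67 and 13.1 CPM. Each was lowest in library 1 and highest in library 2. The 7 endothelial markers summed to 135, 888, 535 and 1068 CPM in the same cardiomyocyte nuclei, with none of them at 0, and were likewise lowest in library 1. Library 2's unnamed nuclei had 194 CPM of Notch1, 111 CPM of Notch4 and 64.8 CPM of Dll4. In all, 6 of 8 members spanned at least 2-fold in cardiomyocytes, beside 37.4% of 13445 genes, and 5 did without library 2. With free RNA subtracted 3 did, Notch2, Notch3 and Hey2, and Notch1, Notch4 and Dll4 were no longer among them. Different clusters held the cardiomyocytes of library 1, of library 2 and of libraries 3 and 4. Hey2 went against this pattern, being lowest in library 2. In the other tested classes the members that spanned 2-fold were 6 of 8 in endocardial nuclei, beside 49.1%, 3 of 5 in lymphatic nuclei, beside 58.5%, 3 of 6 in pericytes, beside 48.8%, and 4 of 8 in fibroblasts, beside 41.6%.

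**Figure D4:**
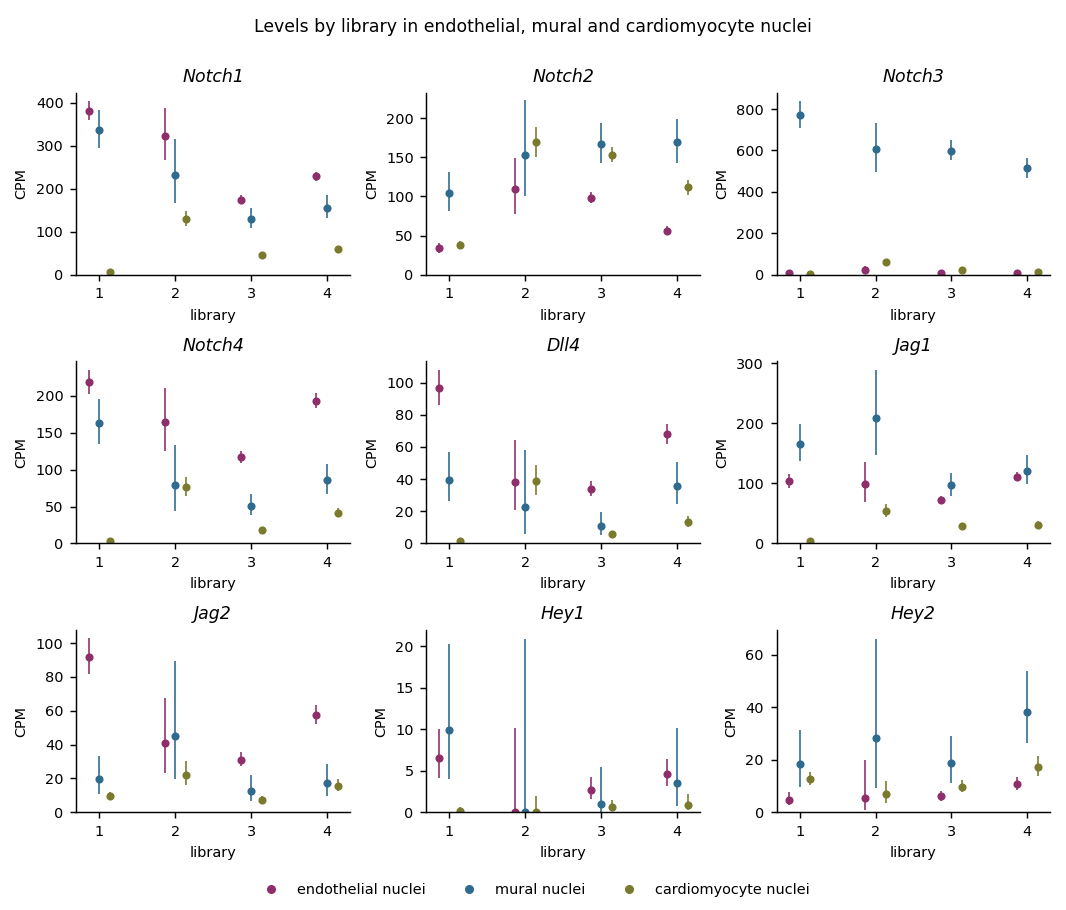
Levels of the 9 genes in CPM by library in endothelial, mural and cardiomyocyte nuclei, with 95% exact Poisson intervals for counting error. Notch3 stays high in mural nuclei of all 4 libraries, and the cardiomyocyte points of Notch1, Notch4 and Dll4 are lowest in library 1.

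Few of the other pathway genes were called. The highest and lowest genes named below are those among genes with enough UMIs. Of 37 held in the table, 28 had enough UMIs in each of the endothelial, mural and arterial comparisons. In endothelial nuclei 1 of the 28 was called higher, beside 2.36% of all genes, and none lower, and their median log2 difference was 0.11, against 0.00 over all genes. Mfng, a Fringe glycosyltransferase that adds sugar to Notch and changes which ligands it answers to, was the gene called, at log2 differences of 2.14, 1.40, 1.70 and 1.36 in libraries 1 to 4. Its direction held in each alternative, but it had too few UMIs to be counted in 4 of them. Lfng, another Fringe enzyme, had too few UMIs to be counted, and its differences were 0.75, 0.60, −0.14 and 0.16. Among the 8 cleavage genes Adam10 was highest, at 1.38, 0.99, 1.04 and 0.97, and the gamma-secretase subunit Aph1a lowest, at 0.37, −0.25, −0.03 and 0.15. In the nuclear complex the coactivator Maml2 was highest, at 2.27, 1.48, 0.82 and 0.91, and Rbpj, the DNA-binding partner itself, lowest, at 0.02, 0.08, −0.84 and −0.71. Neither passed 2-fold in every library.

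No gene of the other groups was called in endothelial nuclei. Mib1 and Mib2, which mark ligands for endocytosis, had median log2 differences of 0.43 and −0.39. Pofut1, which adds the fucose that Fringe enzymes extend, was the lowest glycosylation gene, at −0.18. Numb and Numbl, both inhibitors of Notch, were the highest and lowest of the inhibitors with enough UMIs, at 0.87 and −1.20. Dtx1, a Deltex ubiquitin ligase gene with too few UMIs to be counted, stood above Numb, at 1.72, 1.18, 1.08 and 0.47 in libraries 1 to 4. Of the other targets Nrarp, a feedback inhibitor, stood at 1.39, 0.29, 0.76 and 1.08, Hes1 at 0.01, 0.10, 0.38 and 0.03 and Heyl at −2.39, −0.43, −1.22 and −1.90 in libraries 1 to 4. None of the 3 passed 2-fold the same way in every library.

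In mural nuclei Heyl, the third Hey family gene and one known from vascular smooth muscle, was the gene called higher, 1 of 28 beside 1.18% of all genes. Its level was 228, 113, 146 and 141 CPM in mural nuclei of libraries 1 to 4, against 16.2, 21.9, 13.3 and 8.89 CPM in endothelial nuclei. Its log2 differences from all other named nuclei, on which the call rests, were 1.13, 1.79, 1.77 and 1.70. Endothelial nuclei were themselves low in Heyl, at −2.39, −0.43, −1.22 and −1.90 from all other named nuclei. The gap to endothelium is thus wider than the called one, most of all in library 1. The call was lost under median-of-ratios scaling, where the median was 1.72, and held in the other alternatives. Over the 28 genes the median was 0.09, against 0.00 over all genes. By group the highest and lowest medians were Poglut1 at 0.33 and Pofut1 at −0.14 for glycosylation, Mib2 at 0.25 and Mib1 at −0.00 for endocytosis, and Psenen at 0.22 and Psen2 at −0.50 for cleavage. They were Maml2 at 0.43 and Snw1 at −0.03 for the nuclear complex, and Dtx3 at 1.01 and Fbxw7 at −0.74 for inhibitors. Hes1 stood at −0.12, Nrarp at 0.43, Rbpj at 0.14, Mfng at 0.16 and Lfng, with too few UMIs, at −0.16.

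In arterial nuclei none of the 28 was called in either direction, beside 1.05% of genes called higher and 1.55% lower, and their median was −0.04, against −0.08 over all genes. Dll1, a Delta-like ligand, stood at 1.85, −0.58 and −0.54 in libraries 1, 3 and 4, so library 1 pointed away from the others. Hes1 stood at 0.22, −1.22 and −0.18, Heyl at −1.42, 0.11 and −0.05 and Nrarp at −1.70, 0.32 and 0.86, and each changed sign between libraries. Rbpj stood at 0.33, 0.12 and −0.11, Mfng at 0.28, 0.03 and 0.51 and Lfng, with too few UMIs, at 0.07, 0.25 and −0.02. The highest and lowest medians of the endocytosis, cleavage, nuclear and inhibitor groups were Mib1 at −0.01 and Mib2 at −0.39, Adam17 at 0.42 and Psenen at −0.44, Maml1 at 0.36 and Maml2 at −0.31, and Dtx3 at 0.38 and Dtx1 at −1.16. Pofut1 was the lowest glycosylation gene, at −0.35, and Mfng the highest.

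**Figure D5:**
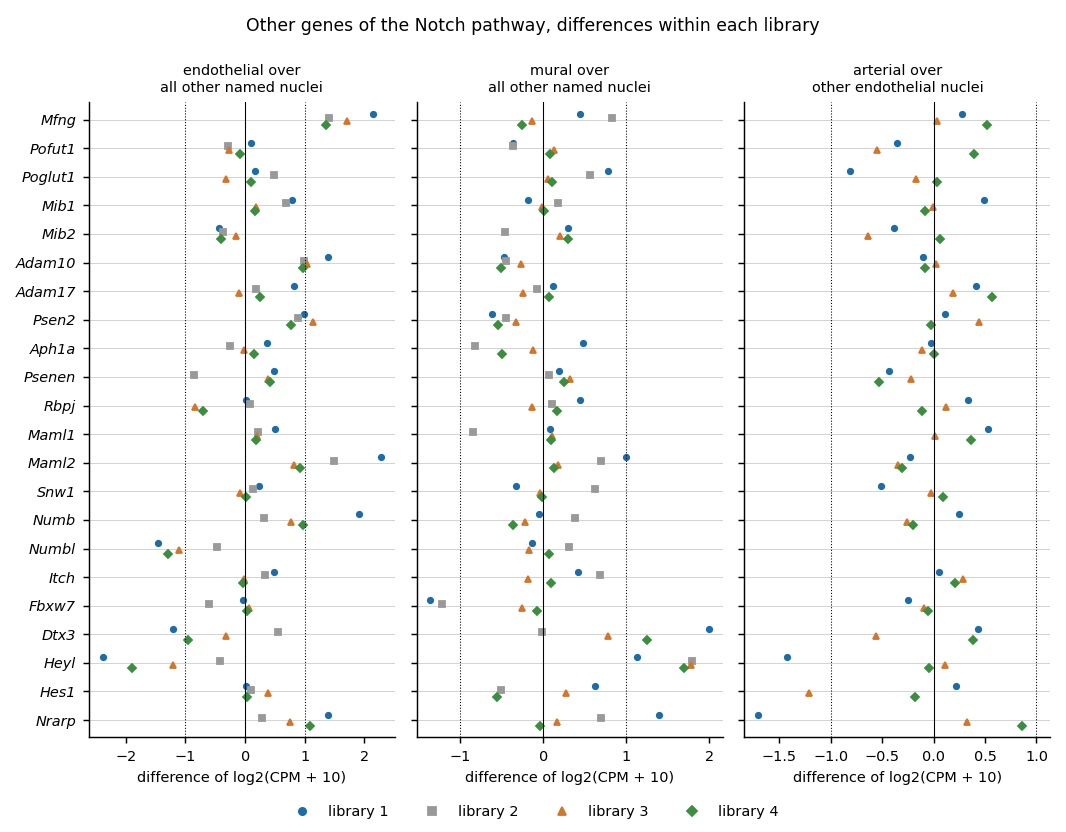
Difference in log2(CPM + 10) of 22 of the other Notch pathway genes, those named in the text and counted in the endothelial or mural comparison, between the first-named class and the nuclei it is set against, 1 point per library, with dotted lines at 2-fold. All points of Mfng in the endothelial panel and of Heyl in the mural panel lie right of the dotted line, and no plotted gene does so in the arterial panel.

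In the 3 narrower comparisons 10 to 12 of the 37 genes had enough UMIs. Psen2, a catalytic subunit of gamma-secretase, was called higher in endocardial nuclei, 1 of 10 beside 2.01% of all genes, at log2 differences of 2.21, 1.07, 1.13 and 1.09 from the other endothelial nuclei. The call was lost with at least 1000 UMIs per nucleus, where the median was 1.02. The lowest cleavage gene there was Adam17, with a median of −0.32. Of the nuclear genes Maml2 was highest at 0.42, of the inhibitors Itch was highest at 0.03 and Numb lowest at −0.48, and Mib1 stood at −0.02 and Rbpj at 0.03. In lymphatic nuclei none of 10 was called, beside 1.41% of genes called higher and 2.67% lower. Psen2 was the lowest cleavage gene at −2.22, −0.61, −1.34 and −0.35 in libraries 1 to 4. The other medians were −0.04 for Adam10, −0.32 for Rbpj, 0.10 for Mib1, −0.03 for Itch and −0.04 for Numb. Dtx1, named after its values were seen and with too few UMIs to be counted, had the largest median difference of the pathway genes, at 5.17, 3.83, 4.21 and 3.64 in libraries 1 to 4. Its level was 362, 132, 181 and 115 CPM in lymphatic nuclei, against 23.4, 16.4, 11.7 and 4.72 CPM in all endothelial nuclei. The latter include the lymphatic nuclei, whereas the log2 differences are from the other endothelial nuclei. Mfng, also with too few UMIs, stood at −1.20, −2.66, −2.42 and −1.90. In smooth muscle against pericytes none of 12 pathway genes was called, and 0 of 5 members were, beside 4.21% of 3371 genes called higher and 4.92% called lower. Among the 12, Heyl stood at −0.32 and −0.85, Mib1 at −1.53 and −0.51, Adam17 at −0.01 and −0.49, Maml2 at −0.96 and −0.55, Dtx3 at −0.12 and 0.62, Itch at −1.55 and 0.07 and Rbpj at 0.21 and −0.37 in libraries 1 and 4. Median-of-ratios scaling moved the median of all genes in this comparison by 0.13 on the log2 scale. Notch1 was lower in smooth muscle in both libraries, at 184 and 80.3 CPM against 330.4 and 162 CPM in pericytes, with log2 differences of −0.81 and −0.93.

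The genes most alike to each member were found over 43 class and library sums in 14 classes, among 11552 genes, by Pearson's r of log2(CPM + 10). The sums share libraries, depth and cell identity, so the values describe these data and carry no test. For Notch3 they were Mrvi1 (0.95), Rasl12 (0.93) and Il34 (0.92), for Notch4 Epas1 (0.92), Dach1 (0.83) and Pcnx1 (0.83), for Notch1 Rgs3 (0.84), Ets1 (0.79) and Nfkbia (0.78) and for Notch2 Runx1 (0.83), Ttc7a (0.79) and Rab32 (0.79). For the ligands they were Ablim3 (0.85), Jag2 (0.85) and Prom1 (0.84) for Dll4, Dll4 (0.85), Epha4 (0.82) and Sox17 (0.81) for Jag2 and Afap1l2 (0.81), Rras (0.78) and Sox13 (0.77) for Jag1. Dll4 and Jag2 were thus on each other's list, and Sox17 is itself among the arterial markers used for naming, as is Sema3g in the next list. For the targets they were Sema3g (0.84), Arl15 (0.81) and Dkk2 (0.80) for Hey1 and Kcnab1 (0.71), Pls3 (0.69) and Dgkb (0.68) for Hey2, the member with the lowest values.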

How the data were processed

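Single-nucleus RNA was captured with the 10x 3′ v3 chemistry, per the labels' protocols. The values are whole-number UMI counts per gene and barcode, deposited as 1 pooled matrix of 48637 barcodes, 32623 features and 108629374 UMIs. The submitters' processing notes name Cell Ranger 6.1.1, Seurat and the rn7 build, while the file header names cellranger 5.0.1, and which one made the matrix is not given in the sources used here.

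Nuclei with at least 500 UMIs, at least 300 genes and at most 10% mitochondrial UMIs were kept, 46590 in all. Scrublet scored doublets in each library, and the top scorers, 0.8% for every 1000 nuclei loaded into the score, were dropped (340 to 2166 a library), which left 41728. Rows that share a symbol were summed. Nuclei were clustered with scanpy 1.11.5 (2000 variable genes, 30 principal components, 15 neighbours, Leiden resolution 1), without the members and other Notch pathway genes, and endothelial and mural nuclei were clustered again. A cluster was named when at least 3 markers of a list passed and no clash was found among its 10 leading genes. A clash meant at least 2 leading genes of another class and more of them than of its own. The list also had to lead by 0.5 on the log2 scale, over other families at first and over other lists when clustered again. At the first clustering, scores pooled over libraries had to name the same family. This naming rule was set after the clusters were seen. Clusters that failed it stayed unnamed and were left out of the named nuclei, except that unnamed endothelial and mural clusters stayed in those 2 classes.

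UMIs were summed by class and library and divided by the class total. Differences were taken within a library on log2(CPM + 10). Intervals are exact: Poisson for levels, Clopper-Pearson for shares, conditional binomial for ratios. Where a gene had 0 UMIs the limit is that of 3 counts. All genes with at least 30 UMIs over both sides were read the same way to give the background share, and the code was tested on simulated data. The members and the pathway lists were chosen with earlier results of these data known. Named pathway genes were the highest and lowest median in each comparison and group, with Heyl, Hes1, Nrarp, Rbpj, Mfng and Lfng always named where held. Some pathway genes that this rule would name are counted but not reported here. Of 39 other pathway genes, Maml3 and Ep300 were not held in the table. Genes most alike were the 3 with the highest Pearson's r among genes with at least 200 UMIs, over sums of at least 50 nuclei. Promoter sequences and chromosome positions are from RefSeq's GRCr8 table.

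Alternatives were median-of-ratios scaling, a pseudocount of 1 CPM, no minimum of UMIs, at least 1000 UMIs per nucleus, no doublet removal, Leiden resolution 0.6, Notch genes kept for clustering, free RNA subtracted, thinning to 1000 UMIs and each library left out. Counting only nuclei of named subtypes, and spans without each library, were chosen after seeing the data.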

Additional observations from a re-analysis of the deposited data

How the results depend on the processing

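No paired analysis was possible because the libraries are not tied to samples and no test was made. Counts of members called were recomputed under each alternative, and with each library left out in turn they are given as lowest and highest. A call between classes must hold in every library, so leaving 1 out can only keep or add such calls. A span between libraries can only stay or shrink. For endothelial nuclei the higher count was 2, was 1 (Notch1) under median-of-ratios scaling and with named subtypes only, and lay between 2 and 4 without 1 library. The lower count was 1, was 2 with free RNA subtracted, was 0 with at least 1000 UMIs per nucleus, with no doublet removal, at resolution 0.6 and with Notch genes kept for clustering, and lay between 1 and 2 without 1 library. For mural nuclei the higher count was 1, and 2 (with Jag1) after subtraction of free RNA. For arterial nuclei the higher count was 2, was 4 with no minimum of UMIs and 1 with named subtypes only, and lay between 2 and 4 without 1 library, and the lower count was 0, and 1 (Notch2) with free RNA subtracted. For endocardial nuclei the lower count was 0, was 2 with no minimum of UMIs and 3 with at least 1000 UMIs per nucleus, and lay between 0 and 3 without 1 library. For lymphatic nuclei the higher count was 1, and 0 with free RNA subtracted and with no doublet removal, and the lower count lay between 1 and 2 without 1 library. For smooth muscle the higher count was 0, and 1 (Hey2) with no minimum of UMIs. The lower count was 0, was 1 with no doublet removal, at resolution 0.6 and with Notch genes kept for clustering, and lay between 0 and 1 without 1 library. Of the spans between libraries, the endothelial count was 4, was 7 with a pseudocount of 1 CPM, and lay between 0 and 4 without 1 library. The mural count was 5, was 1 with at least 1000 UMIs per nucleus and 2 with named subtypes only, and lay between 2 and 5 without 1 library. The cardiomyocyte count was 6, and 3 with free RNA subtracted. The cause of these differences was not tested. No called member's median difference turned its sign under any alternative run. Depth limits Hey1 most, with 110 UMIs in all, and library 2, with a median of 602 UMIs per nucleus, gave no arterial, capillary or smooth muscle value.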

Other observations

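The unnamed nuclei of library 2, 92.2% of that library, enter none of the class comparisons. Summed, they had 194 CPM of Notch1, 233 of Notch2, 56.1 of Notch3 and 111 of Notch4. The ligands stood at 64.8 CPM of Dll4, 92.0 of Jag1 and 32.0 of Jag2, and the targets at 0.596 CPM of Hey1 and 8.15 of Hey2. As a sum, these nuclei thus held RNA of the endothelial receptors and of the mural receptor. The sum runs over several clusters and does not show these receptors together in a cluster or a nucleus. No free RNA estimate is given for the unnamed nuclei, and the part of free RNA in these levels was not tested.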
